A study of Homo sapiens with 18 samples.

Results

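Lysosome and autophagy genes were followed as a group of 38 members out of 58735 gene rows, taken by matching a list of 38 symbols to the Ensembl identifiers of the count table. The list holds the transcription factors TFEB and TFE3, membrane proteins and an ion channel of the lysosome, the secreted chaperone CLU, acid hydrolases and their activators, subunits of the vacuolar proton pump (V-ATPase), autophagy genes, and the nutrient sensors RRAGD, FLCN and FNIP1. The rule matches symbols and uses no measured value. The symbols themselves were chosen with earlier results of these data known. Shares of members set against all genes therefore describe this list and are not a test of it. All libraries came from RPMI-8402, a human cell line established from a T-cell acute lymphoblastic leukaemia. Cells with a non-targeting control guide (NT, labelled as wild type) were compared with cells in which PIK3R1 was knocked out (KO); this gene encodes a regulatory subunit of phosphoinositide 3-kinase. Each genotype was exposed for 24 h to the vehicle DMSO, to CB-103, which blocks the NOTCH transcription complex, or to LY3039278, an inhibitor of gamma-secretase (GSI), the protease that releases active NOTCH. The 6 groups held 3 replicates each, 18 libraries in all, with totals of 30416183 to 43558387 estimated reads. The sources used here give no doses, no number of KO clones and no origin of the replicates. P-values therefore measure spread among libraries that may be partly technical.

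Lysosomes are acidified compartments in which proteases, glycosidases, sulfatases and lipases break down material delivered by endocytosis and by autophagy, the enclosure of cytoplasm in double-membraned vesicles. TFEB and TFE3, basic helix-loop-helix factors of the MiT family, bind the CLEAR element, an extended E-box found near the start of many lysosomal genes. At the lysosomal surface, Rag GTPases and the folliculin complex help mTORC1 to phosphorylate these factors, which keeps them in the cytoplasm when amino acids are plentiful. Messenger RNA reports neither the location of these proteins nor the rate of degradation.

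Promoter sequences are shown first because the CLEAR element is what is known to tie many of these genes together, although no binding was measured here. RefSeq windows (GRCh38.p14) from 250 bases before to 50 bases after a start site were found for 26 of the 38 members. The palindromic E-box CACGTG occurred in a window of 8 of these 26 genes (30.8%), against 12.1% of the 11624 tested genes with a window and 8.77% of all 27305 genes in the table, counting a gene once if any of its windows held the motif. The E-box flanked by GT before it or AC after it (GTCACGTG or CACGTGAC, part of the CLEAR palindrome, overlapping the E-box itself) occurred in 6 of the 26 (23.1%), against 5.06% of tested genes and 2.93% of all. Both strands are covered because the E-box is its own reverse complement and the flanked forms are reverse complements of each other. The 30-base stretches below lie wholly before the start site, are written 5′ to 3′ on the gene's strand, and carry the E-box with its matching flank in capitals. They were chosen to set a member that rose with CB-103 (CTSD) and one that fell (CTSA) beside 3 members that were not called with CB-103 in NT cells (LAMP1, MCOLN1 and ATP6V0D1), plus NEU1 as a member with the plain E-box.
CTSD: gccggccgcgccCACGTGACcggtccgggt
CTSA: gaggaagactGTCACGTGgcgccggagttc
LAMP1: accaggccggGTCACGTGggtccagggtca
LAMP1: gccgctgcggGTCACGTGccgctgcgggtc
MCOLN1: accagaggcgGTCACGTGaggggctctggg
ATP6V0D1: cccccttatgGTCACGTGaggcgcttgcgc
NEU1: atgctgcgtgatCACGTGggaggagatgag
The CTSD stretch lies at chr11:1763957-1763986 on the minus strand, with its motif 47 bases before the start. The CTSA stretch lies at chr20:45891281-45891310 on the plus strand (42 bases before the start). Both LAMP1 stretches come from a run of 4 flanked E-boxes spaced 16, 17 and 17 bases apart, at chr13:113297035-113297064 and chr13:113297068-113297097 on the plus strand. The MCOLN1 stretch is at chr19:7522571-7522600 (plus strand), that of ATP6V0D1 at chr16:67481199-67481228 (minus strand) and that of NEU1 at chr6:31862930-31862959 (minus strand). In NT cells treated with CB-103, an E-box was present for 4 of the 16 members with a window that rose, 1 of the 4 that fell and 3 of the 4 that were not called. In KO cells it was present for 5 of the 15 that rose, 1 of the 2 that fell and 2 of the 7 that were not called. Of the members with an E-box, only ATP6V0D1 changed class between the genotypes. Its rise in KO cells was lost in 3 of 6 removals of 1 library. No CACGTG was found in the windows of TFEB, TFE3, CD68, GLA, ATP6V0A1, SQSTM1, MAP1LC3B, GABARAPL1 or WIPI1. The same was true of GLB1, GUSB and NPC2, which fell with CB-103 in NT cells. A match is a string of letters and not a bound site.

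On the scale per length (TPM), PSAP, the precursor of the saposins that help hydrolases reach lipids, was the most abundant member, at 801 ± 39.8 TPM (SD, n = 3) in NT DMSO. NPC2, a cholesterol carrier of the lysosomal lumen, followed at 146 ± 5.95 TPM, LAMP2 at 93.04 ± 1.15 TPM, CD63 at 72.7 ± 2.36 TPM and the aspartic protease CTSD at 59.5 ± 4.21 TPM. At the other end stood WIPI1 (0.54 ± 0.145 TPM), TFEB (0.436 ± 0.114 TPM) and CLU (0.163 ± 0.154 TPM), whereas TFE3 reached 11.5 ± 0.388 TPM. TFE3 was therefore the more abundant of the 2 MiT factors on the list in every group. CTSL, CTSZ and SGSH did not pass the filter on low counts, with means over the libraries of 0.111, 1.5 and 5 counts, and were not tested. The other 35 passed, CLU through 4 of the 6 groups and the rest in all 6.

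Of 12 listed T-lineage markers, 7 reached 1 CPM (counts scaled by library size and TMM factor): CD3D, CD3E, CD3G, CD2, CD5, CD7 and LCK. CD1A, CD4, CD8A, PTCRA and IL7R did not reach it in any library. The list summed to 1629 to 1709.7 CPM in NT DMSO and 886 to 993 CPM in NT CB-103. Of 18 myeloid markers 3 reached 1 CPM in any library (LYZ, ITGAM and AIF1), with ELANE, S100A8 and MARCO at 0. B-cell and erythroid lists had 2 of 6 and 1 of 9. The adherent list had 2 of 10, COL1A1 and PECAM1. It summed to 260 to 282 CPM in NT DMSO and 78.4 to 84.7 CPM in NT CB-103. These sums were not tested. PIK3R1 itself was lower in KO than NT under DMSO (-0.97 ± 0.09, log2 fold change ± SE, edgeR adjusted p = 4.1e-07) and GSI (-0.95), but not past the threshold under CB-103 (-0.16, adjusted p = 0.17). There the libraries labelled NT held 30.9, 33.5 and 29.05 CPM and those labelled KO 25.9, 29.9 and 27.6 CPM, and they overlapped. CB-103 lowered PIK3R1 in NT cells (-0.50 ± 0.09, edgeR adjusted p = 7.4e-05) and raised it in KO cells (0.31 ± 0.09, adjusted p = 0.0088). The difference of these responses was called (0.81 ± 0.13, adjusted p = 0.00034). KO and NT therefore name the genotypes given by the labels, which this transcript does not set apart under CB-103. In bulk libraries a change in every cell and a change in the share of cells that express a gene cannot be told apart.

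Each inhibitor was compared with DMSO in each genotype. Whether a change ran through NOTCH or through another action of the compound was not tested. With CB-103 in NT cells, 2 autophagy genes rose over 10-fold: WIPI1, a phosphoinositide-binding protein of the forming autophagosome, rose 23.9-fold and GABARAPL1, a ubiquitin-like protein attached to its membrane, 10.8-fold. CLU rose 21.7-fold, the V-ATPase subunit gene ATP6V0A1 6.28-fold, CTSD 3.78-fold and TFE3 3.001-fold. The folds of WIPI1 and CLU are imprecise, since their NT DMSO libraries held few reads (19, 12 and 14 counts, and 3, 10 and 2 counts). GUSB, the beta-glucuronidase, fell 1.72-fold, and RRAGD, NPC2 and CTSB fell by smaller steps. At an edgeR adjusted p under 0.05, 20 of 35 tested members (57.1%) were higher, against 29.5% of all genes, and 7 (20%) were lower, against 28.7%. The median log2 change was 0.33 for members and 0.04 for all 17346 genes. At least 2-fold rises were called for 10 members, against 9.99% of all genes, and no member fell that far, against 7.89%.

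In KO cells CB-103 gave 19 members higher (54.3%, all genes 24.9%) and 3 lower (8.57%, all genes 23.7%), with a median of 0.22 against -0.01 for all genes. Rises of at least 2-fold were again called for 10 members (all genes 6.04%), and falls for none (all genes 3.83%). The CB-103 comparisons in NT and KO cells share no library. Of the 35 members, 17 (48.6%) were called higher in both, against 20.8% of all genes, and 3 (8.57%; CTSA, CTSB and GUSB) lower in both, against 20.5%. None was called in opposite directions, against 0.34% of all genes. GSI gave fewer calls. In NT cells it gave 7 members higher (20%, all genes 9.67%) and 3 lower (8.57%, all genes 15%), with a median of 0.07, and in KO cells 9 higher (25.7%, all genes 9.69%) and 2 lower (5.71%, all genes 9.58%), with a median of 0.06. LAMP2, CD68, NEU1 and SQSTM1 (4 members, 11.4%) were called higher with GSI in both genotypes, against 4.44% of all genes, and PSAP (2.86%) lower in both, against 6.59%. Where 1 library was left out in turn, 18 of the 20 rises and 6 of the 7 falls with CB-103 in NT cells were called each time. The exceptions were FLCN (lost without NT DMSO replicate 1 or 3 or NT CB-103 replicate 2), TPP1 (NT DMSO replicate 2 or NT CB-103 replicate 1) and ATP6V1A (NT CB-103 replicate 3). Of the 2 falls with GSI in KO cells, neither was called without KO GSI replicate 3, and GUSB needed KO DMSO replicate 2 as PSAP needed KO DMSO replicate 1.

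**Figure D1:**
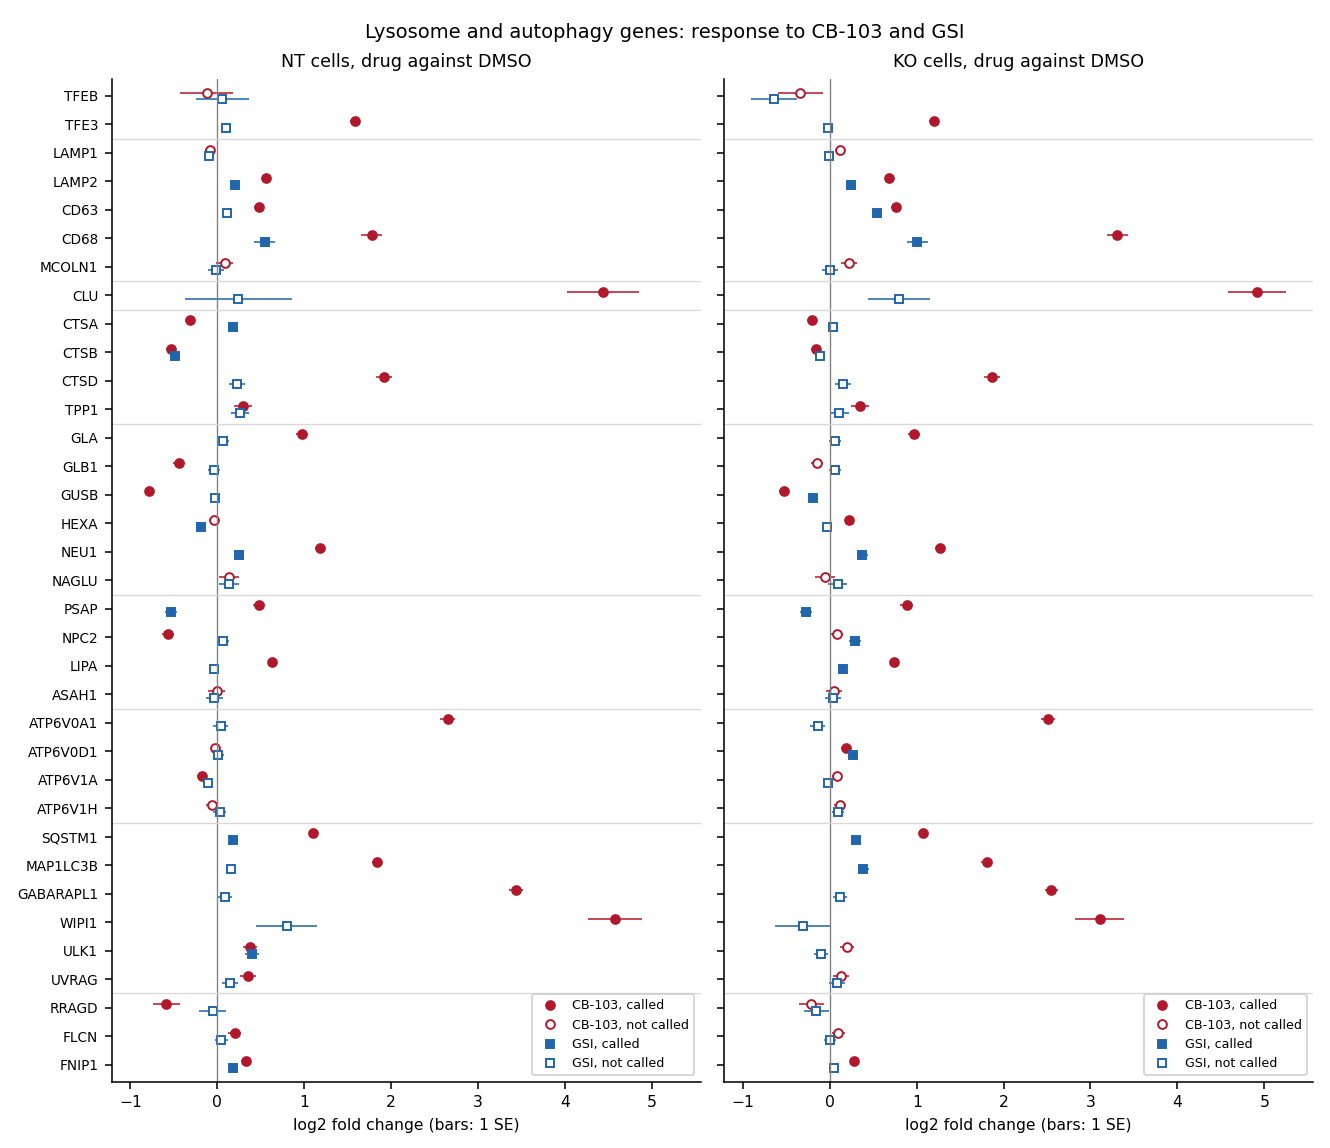
Log2 fold changes with 1 SE (x axis) of the 35 tested members (y axis, in the order of their roles) for CB-103 (red circles) and GSI (blue squares) against DMSO in NT cells on the left and KO cells on the right; filled symbols passed an adjusted p under 0.05. CB-103 moved WIPI1, CLU, GABARAPL1 and ATP6V0A1 by more than 2 log2 units in both genotypes, while GSI changes stayed between -0.64 and 1.01.

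The libraries labelled KO were compared with those labelled NT within a treatment. With no number of KO clones given, an effect of PIK3R1 loss cannot be told apart from other differences between the cells. TFEB, RRAGD (a Rag GTPase that helps recruit mTORC1 to the lysosome) and CLU stood higher in KO cells under all 3 treatments. So did CD63, CTSB and NAGLU, an enzyme of heparan sulfate breakdown, which makes 6 of 35 (17.1%), against 5.68% of all genes. NPC2 was lower in KO cells under DMSO and GSI. Under DMSO 12 members were higher (34.3%, all genes 9.78%) and 1 lower (2.86%, all genes 11.7%), with a median of 0.12. Under CB-103 18 were higher (51.4%, all genes 20.4%) and 2 lower (5.71%, all genes 16.5%), with a median of 0.19. Under GSI 18 were higher (51.4%, all genes 18.8%) and 3 lower (8.57%, all genes 15%), with a median of 0.19. Medians over all genes lay within 0.01 of 0 in these 3 comparisons. Under GSI the number of members higher dropped to 11 without NT GSI replicate 1, and 7 of the 18 calls were lost in at least 1 removal (ATP6V0D1, ATP6V1H, FLCN, GLA, LAMP2, MAP1LC3B and TFE3). All 7 were lost without that library. Under CB-103 6 of 18 were lost in at least 1 removal: ATP6V0A1, CTSA, GLA, LAMP1 and NAGLU without NT CB-103 replicate 2 (among others) and GLB1 without KO CB-103 replicate 3. Under DMSO the same held for FLCN (without KO DMSO replicate 2) and WIPI1 (without NT DMSO replicate 3 or KO DMSO replicate 1).

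CB-103 and GSI were also compared directly. In NT cells 17 members were higher with CB-103 than with GSI (48.6%, all genes 29.2%) and 5 lower (14.3%, all genes 27.1%). In KO cells 18 were higher (51.4%, all genes 24.7%) and 4 lower (11.4%, all genes 23.1%). On the log2 scale GABARAPL1 was higher with CB-103 by 3.34 ± 0.08 in NT and 2.44 ± 0.08 in KO cells, and CTSD by 1.70 and 1.71. ULK1 in NT cells did not differ between the inhibitors past the threshold (-0.02 ± 0.08, adjusted p = 0.83), and neither did CTSB in either genotype (-0.04 ± 0.06 and -0.05 ± 0.06). In KO cells 2 of the 4 lower calls, GLB1 and NPC2, were lost without KO GSI replicate 2 (NPC2 also without KO GSI replicate 1).

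Whether a response differed between the genotypes was tested as the difference of the 2 responses, KO minus NT. For CB-103 9 members responded more positively in KO cells (25.7%, all genes 10.3%) and 3 more negatively (8.57%, all genes 4.34%). For GSI 2 did so positively (5.71%, all genes 2.1%) and 1 negatively (2.86%, all genes 0.692%). The NT GSI libraries agreed least within their group. Chi-square per gene was 67.0 for replicates 1 and 2 and 31.4 for 2 and 3, against at most 22.1 in other groups. Without NT GSI replicate 2, 1200 of all genes were called positive and 305 negative for GSI, against 364 and 120 with all libraries. CD68 (1.53 ± 0.17, adjusted p = 1.6e-05) and NPC2 (0.65 ± 0.10, adjusted p = 0.00022) had the 2 largest positive differences for CB-103. WIPI1 (-1.47 ± 0.42, adjusted p = 0.023) and GABARAPL1 (-0.88 ± 0.11, adjusted p = 4.5e-05) had the 2 largest negative ones. CD68, NPC2, CTSB, PSAP, TFE3 and GABARAPL1 passed under each removal of 1 library. The calls of ATP6V1A, CD63, GLB1, GUSB, HEXA and WIPI1 for CB-103 and all 3 for GSI (CD63, CTSB and ULK1) were lost in at least 1 removal. WIPI1 was lost without NT DMSO replicate 2 or 3, NT CB-103 replicate 3 or KO DMSO replicate 1, and CD63 for GSI without NT DMSO replicate 1 or KO GSI replicate 3.

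**Figure D2:**
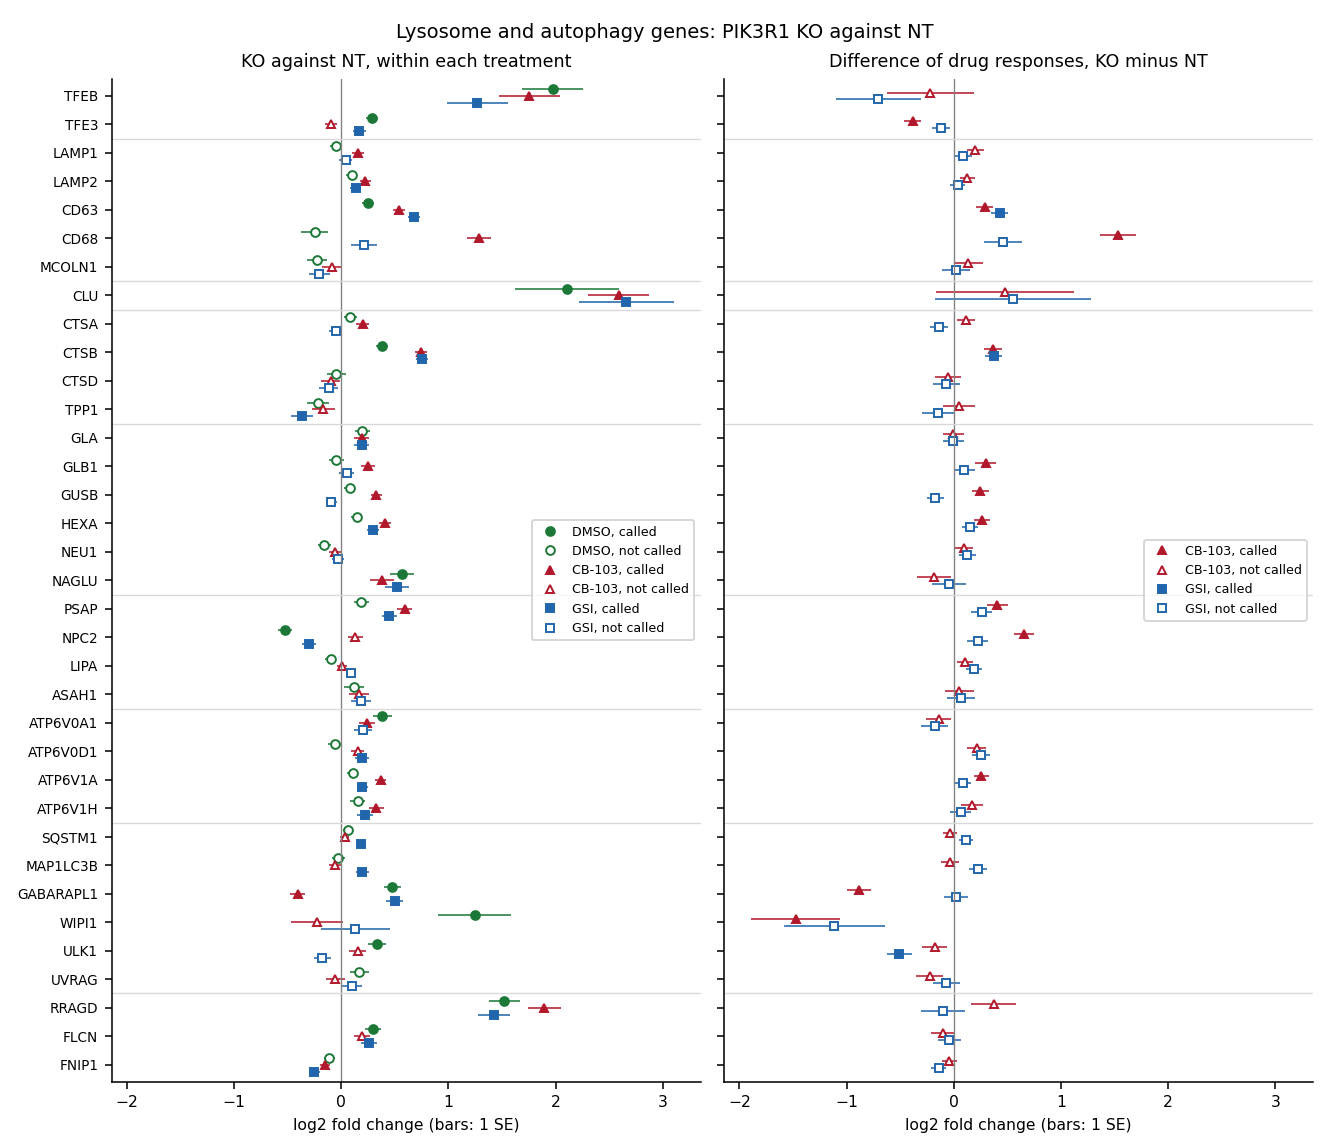
Left, log2 fold changes with 1 SE (x axis) of KO against NT cells for the 35 tested members (y axis) under DMSO (green circles), CB-103 (red triangles) and GSI (blue squares); right, the difference of each drug response, KO minus NT. Filled symbols passed an adjusted p under 0.05; TFEB, RRAGD and CLU lie above 1 on the left under all 3 treatments, and CD68 and WIPI1 lie at opposite ends on the right.

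Of the transcription factors, TFE3 answered to CB-103. NT cells held 32.1, 33.6 and 32.7 CPM under DMSO and 101, 98.4 and 96.1 CPM under CB-103. In KO cells it was 38.8, 37.8 and 43.7 CPM under DMSO and 94.2, 93.2 and 88.95 CPM under CB-103. All 6 CB-103 libraries lay above all 12 others, since the GSI libraries held 33.9, 36.6 and 35.1 CPM (NT) and 42.03, 37.4 and 39.3 CPM (KO). The rise was 1.59 ± 0.06 in NT (edgeR adjusted p = 1.4e-13) and 1.20 ± 0.06 in KO cells, a difference of -0.38 ± 0.08 (adjusted p = 0.0034). TFE3 started slightly higher in KO DMSO (0.29 ± 0.06) and the genotypes were not called different under CB-103 (-0.10 ± 0.06).

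TFEB, the better known regulator of lysosome formation, followed genotype. NT libraries held 0.52, 0.864 and 0.704 CPM under DMSO, 0.455, 0.446 and 1.02 CPM under CB-103 and 0.701, 0.797 and 0.676 CPM under GSI. KO libraries held 2.09, 3.504 and 2.58 CPM under DMSO, 2.13, 2.23 and 2.13 CPM under CB-103 and 1.82, 1.42 and 2.02 CPM under GSI. The lowest KO library lay above the highest NT library, although these levels rest on few reads (19, 28 and 30 counts in NT DMSO, 73, 147 and 93 in KO DMSO). KO exceeded NT by 1.97 ± 0.28 under DMSO (adjusted p = 5.4e-05), 1.76 ± 0.29 under CB-103 and 1.27 ± 0.28 under GSI (adjusted p = 0.0023). Neither inhibitor changed TFEB past the threshold (-0.12 ± 0.30 for CB-103 in NT cells, and -0.64 ± 0.26 for GSI in KO cells, adjusted p = 0.10).

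The nutrient sensors did not move as one. RRAGD stood at 8.13, 6.82 and 7.11 CPM in NT DMSO and 16.7, 23.2 and 23.5 CPM in KO DMSO. With CB-103 NT libraries held 4.07, 5.54 and 5.16 CPM and KO libraries 18.3, 19.1 and 17.3 CPM, and with GSI 6.18, 7.15 and 7.93 CPM (NT) and 16.7, 22.8 and 17.5 CPM (KO). As for TFEB, the 9 KO libraries did not overlap with the 9 NT libraries. KO exceeded NT by 1.52 ± 0.15 under DMSO (edgeR adjusted p = 8.4e-07), 1.90 ± 0.15 under CB-103 and 1.42 ± 0.15 under GSI. CB-103 lowered RRAGD in NT cells (-0.59 ± 0.16, adjusted p = 0.0039) but not past the threshold in KO cells (-0.21 ± 0.14), and this difference was not called (0.37 ± 0.21, adjusted p = 0.27).

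FLCN, folliculin, activates RRAGD and RRAGC as part of a complex with FNIP1. FLCN ranged from 30.6, 32.8 and 31.8 CPM in NT DMSO to 34.3, 39.7 and 35.5 CPM in NT CB-103 and 36.8, 41.03 and 39.1 CPM in KO DMSO. The step with CB-103 was 0.20 ± 0.08 (adjusted p = 0.03), and with DESeq2 size factors or the DESeq2 Wald test it was not called (adjusted p = 0.070 and 0.11). The step with KO was 0.30 ± 0.07 under DMSO and 0.26 ± 0.08 under GSI. FNIP1 rose with CB-103 from 41.3, 42.9 and 39.1 to 49.98, 51.3 and 53.1 CPM in NT cells (0.33 ± 0.05, adjusted p = 1.5e-05) and from 38.1, 38.4 and 37.6 to 44, 46.9 and 47.97 CPM in KO cells (0.28 ± 0.05). It was lower in KO than NT under GSI (-0.25 ± 0.05), where the libraries held 45.9, 45.9 and 47.9 CPM (NT) and 39.1, 40.5 and 37.9 CPM (KO).

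**Figure D3:**
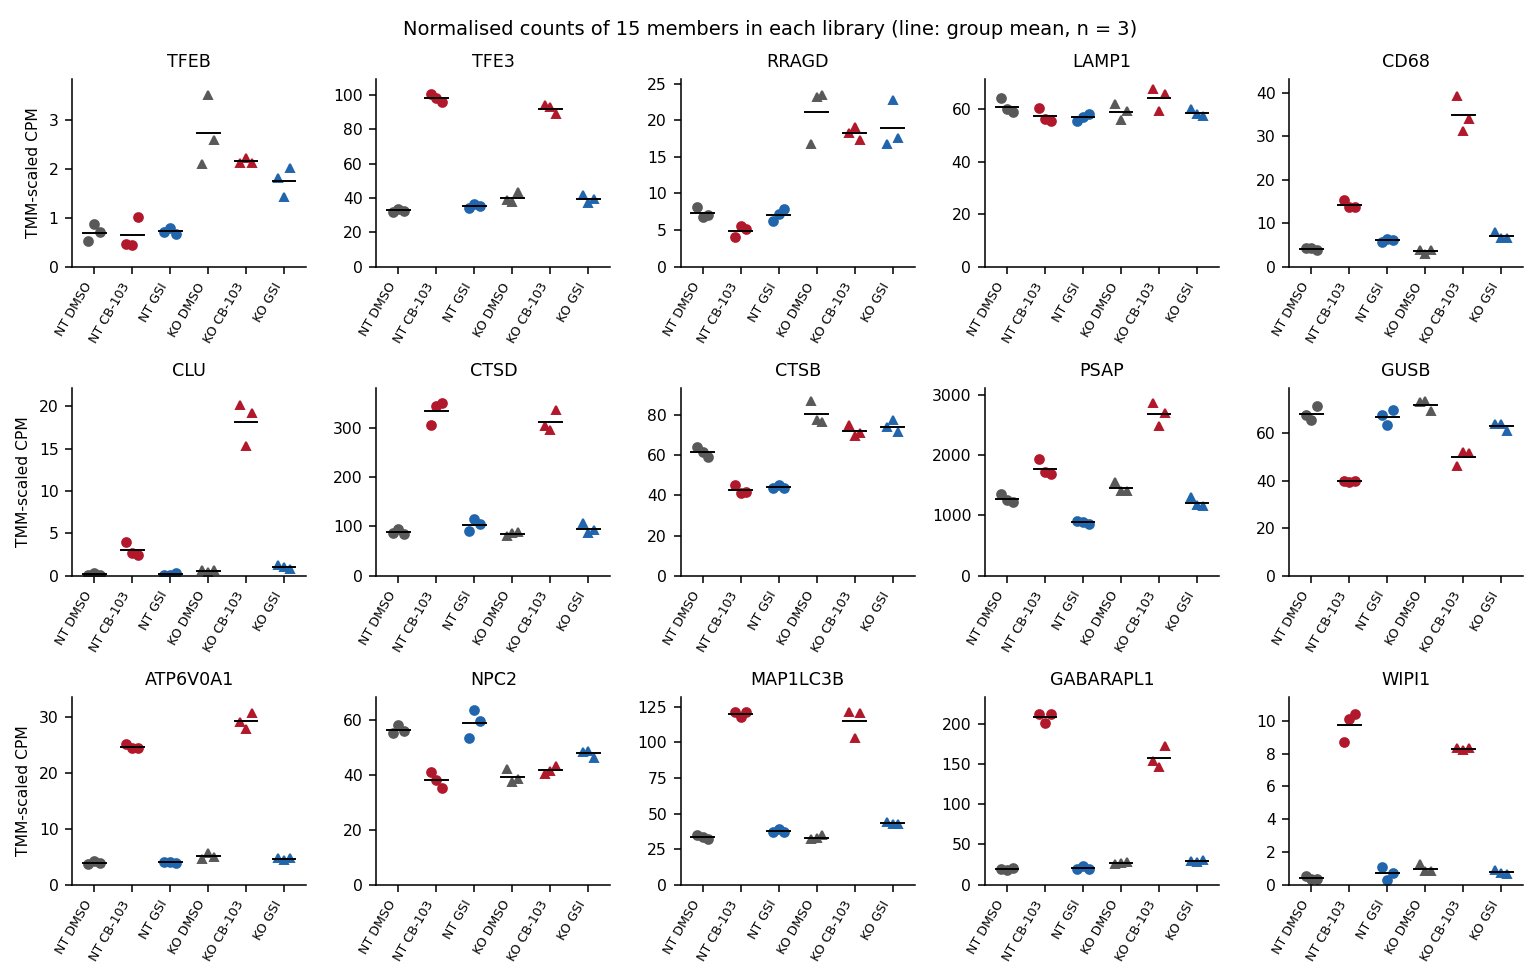
TMM-scaled CPM (y axis, from 0) of 15 members in each of the 18 libraries (points), with the mean of 3 as a line; circles are NT and triangles KO, grey DMSO, red CB-103 and blue GSI. TFEB, RRAGD and CTSB separate by genotype. The CB-103 libraries lie above all others for TFE3, CD68, CLU, CTSD, PSAP, ATP6V0A1, MAP1LC3B, GABARAPL1 and WIPI1, and below all others for GUSB.

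All 6 autophagy members rose with CB-103 in NT cells, where 29.5% of all genes were higher, and 4 of 6 in KO cells, where 24.9% were. GABARAPL1 held 18.9, 17.9 and 21.2 CPM in NT DMSO and 213, 201 and 213 CPM in NT CB-103, and 26.2, 26.5 and 28.1 CPM in KO DMSO and 154, 146 and 173 CPM in KO CB-103. The GSI libraries, at 19.9, 23.2 and 18.8 CPM (NT) and 28.9, 28.04 and 30.4 CPM (KO), stayed near their DMSO controls. The rise was 3.43 ± 0.08 in NT (edgeR adjusted p = 8.9e-16) and 2.55 ± 0.08 in KO cells (adjusted p = 4.3e-14). The order of the genotypes turned over: KO exceeded NT under DMSO (0.48 ± 0.08) and GSI (0.50 ± 0.08) and fell below NT under CB-103 (-0.41 ± 0.07).

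WIPI1 rose from 19, 12 and 14 counts in NT DMSO (0.52, 0.37 and 0.329 CPM) to 363, 318 and 358 counts in NT CB-103 (8.701, 10.1 and 10.4 CPM). In KO cells it rose from 1.29, 0.811 and 0.806 to 8.33, 8.24 and 8.37 CPM, while GSI libraries held 1.101, 0.276 and 0.702 CPM (NT) and 0.924, 0.738 and 0.661 CPM (KO). These rises were 4.58 ± 0.31 in NT and 3.10 ± 0.28 in KO cells (edgeR adjusted p = 6.3e-10 and 4.5e-08). The form of the transcript differed too. The transcript annotated as a retained intron held 68.1 ± 9.9% of the gene's TPM in NT DMSO and 10.6 ± 5.4% in NT CB-103 (SD, n = 3). The protein-coding transcript WIPI1-201 was at 0 in NT DMSO and held 49.8 ± 9.3% in NT CB-103. In KO cells the retained-intron form went from 57.4 ± 15.3% to 8.1 ± 5.2%. These shares were not tested, and 24.3% of the WIPI1 exon bases lie opposite ARSG, a sulfatase gene of similar mean count (115 against 122). The sources used here do not say whether counting used strand, so WIPI1 at its low levels is uncertain.

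MAP1LC3B, which encodes the autophagosome protein LC3B, and SQSTM1, which encodes the cargo receptor p62, rose with CB-103 in both genotypes. MAP1LC3B went from 34.9, 33.7 and 32.2 to 121, 118 and 121 CPM in NT and from 31.8, 32.4 and 34.6 to 121, 103.3 and 121 CPM in KO cells. SQSTM1 went from 64.02, 63.9 and 61.1 to 143, 134 and 128 CPM in NT and from 63.9, 66.7 and 67.3 to 136, 136 and 143 CPM in KO cells. For both genes each CB-103 library lay above each DMSO and GSI library. MAP1LC3B rose by 1.84 ± 0.06 and 1.80 ± 0.06, and SQSTM1 by 1.10 ± 0.05 and 1.07 ± 0.05 (NT then KO, largest edgeR adjusted p = 2.1e-12). The differences between genotypes were -0.03 ± 0.08 and -0.03 ± 0.06 and were not called. GSI gave 43.9, 42.8 and 42.4 CPM of MAP1LC3B in KO cells (0.39 ± 0.06, adjusted p = 0.00017) and 37.1, 38.9 and 36.6 CPM in NT cells (0.16 ± 0.06, adjusted p = 0.06). SQSTM1 was higher with GSI in both (70.8, 72.2 and 71.97 CPM in NT, 0.19 ± 0.05, and 82.2, 82.4 and 79.4 CPM in KO cells, 0.30 ± 0.05). Reads of MAP1LC3B cannot be fully separated from those of its near-identical copy MAP1LC3B2.

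ULK1, the kinase that starts autophagy, rose in NT cells with either inhibitor, from 56.7, 69.1 and 68.1 CPM to 76.2, 87.4 and 89.1 CPM with CB-103 (0.38 ± 0.08) and 84.7, 78.9 and 92.9 CPM with GSI (0.40 ± 0.08, edgeR adjusted p = 0.0014). In KO cells, at 79.1, 83.9 and 81.2 CPM under DMSO and 68.95, 77.2 and 81.1 CPM under GSI, it was not called for GSI (-0.10 ± 0.08), and the responses differed by -0.51 ± 0.12 (adjusted p = 0.034). This difference was lost without 8 of the 12 libraries when each was removed in turn, KO DMSO and NT GSI among them, and replicate 1 of ULK1 differed from the others by -0.14 (log2) across groups (edgeR adjusted p = 0.017). UVRAG, a member of the class III PI3K complex, rose by 0.35 ± 0.09 with CB-103 in NT cells and was not called in KO cells (0.13 ± 0.09).

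Membrane proteins of the lysosome split. LAMP1, an abundant glycoprotein of the lysosomal wall and carrier of the E-box run shown above, held 64.3, 60.02 and 58.9 CPM in NT DMSO, 60.7, 56.5 and 55.8 CPM in NT CB-103 and 55.8, 57.02 and 58.2 CPM in NT GSI. In KO cells it held 62.2, 55.9 and 59.4 CPM under DMSO, 67.7, 59.3 and 65.8 CPM under CB-103 and 60.2, 58.1 and 57.5 CPM under GSI. CB-103 and DMSO libraries overlapped in both genotypes, and no drug comparison was called (-0.08 ± 0.06 for CB-103 in NT cells, edgeR adjusted p = 0.23). KO exceeded NT under CB-103 by 0.16 ± 0.06 (adjusted p = 0.042), a call lost without NT CB-103 replicate 2 or 3 or KO CB-103 replicate 1 or 3. For CB-103 in KO cells LAMP1 gave 0.12 ± 0.06 (adjusted p = 0.10), and passed with gene sums of transcript estimates (0.11, adjusted p = 0.048). MCOLN1, the lysosomal calcium channel, was not called in any comparison of the deposited gene counts (0.08 ± 0.09 and 0.22 ± 0.09 for CB-103 in NT and KO cells). With gene sums of transcript estimates both passed (0.26, adjusted p = 0.0054, and 0.28, adjusted p = 0.0045).

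LAMP2, which is needed for lysosomes to fuse with autophagosomes, rose from 151, 149 and 155 to 227, 222 and 223 CPM with CB-103 in NT cells and from 169, 160.0 and 158 to 262, 246 and 277 CPM in KO cells. GSI libraries held 171, 182 and 172 CPM (NT) and 182, 192 and 202 CPM (KO), above their DMSO and below their CB-103 libraries. The rises with CB-103 were 0.56 ± 0.05 and 0.69 ± 0.05 and with GSI 0.20 ± 0.05 and 0.24 ± 0.05 (NT then KO, largest edgeR adjusted p = 0.0062). Of its transcripts, LAMP2-202 held 65.0 ± 1.3% and LAMP2-201 25.5 ± 1.2% of TPM in NT DMSO, and 59.5 ± 0.3% and 29.6 ± 0.7% in NT CB-103. CD63, a tetraspanin of late endosomes, rose with CB-103 by 0.48 ± 0.06 in NT and 0.76 ± 0.06 in KO cells, and with GSI by 0.55 ± 0.06 in KO cells.

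CD68, a heavily glycosylated lysosomal protein used as a macrophage marker, had the largest difference between genotypes in its CB-103 response among the 35 members. It held 4.24, 4.38 and 3.92 CPM in NT DMSO and 15.4, 13.8 and 13.7 CPM in NT CB-103, against 3.87, 2.86 and 3.86 CPM in KO DMSO and 39.4, 31.2 and 33.99 CPM in KO CB-103. Under GSI it held 5.71, 6.44 and 6.16 CPM (NT) and 7.9, 6.61 and 6.71 CPM (KO). Every CB-103 library exceeded every GSI library, which in turn exceeded every DMSO library. The rise with CB-103 was 1.77 ± 0.12 in NT and 3.31 ± 0.12 in KO cells, a difference of 1.53 ± 0.17 (edgeR adjusted p = 1.6e-05), and with GSI 0.55 ± 0.12 and 1.01 ± 0.12. The 18 listed myeloid markers, which do not include CD68, summed to 107 to 121 CPM in NT DMSO, 46.3 to 52.6 CPM in NT CB-103, 89.9 to 103.8 CPM in KO DMSO and 72.1 to 83.0 CPM in KO CB-103, nearly all of it AIF1. Under GSI they summed to 109 to 123 CPM in NT and 113 to 128 CPM in KO cells. The sum was thus lower with CB-103 than with DMSO in both genotypes. Some markers at low level stood higher with CB-103, such as CD163 in NT cells (0.145 against 0.537 CPM as means of DMSO and CB-103) and MPO in KO cells (0.0347 against 0.186 CPM). These are picked examples, each given in 1 genotype, that stayed below 1 CPM in every library. The part of these markers in the CD68 result was not tested. On the genome 81.7% of the CD68 exon bases are shared on the same strand with ENSG00000264772, an overlapping transcript of mean count 109 against 408, so the split of reads between them is uncertain.

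CLU encodes clusterin, an extracellular chaperone that is made in the secretory pathway and is also a CLEAR-network gene. Its counts were 3, 10 and 2 in NT DMSO, 166, 84 and 82 in NT CB-103, 24, 18 and 25 in KO DMSO and 672, 521 and 668 in KO CB-103. NT cells thus held 0.0821, 0.309 and 0.0469 CPM under DMSO and 3.98, 2.68 and 2.39 CPM under CB-103, and KO cells 0.688, 0.429 and 0.695 CPM and 20.1, 15.3 and 19.2 CPM. Under GSI it held 0.0751, 0.123 and 0.286 CPM in NT and 1.22, 1.05 and 0.85 CPM in KO cells. CLU was thus highest where CB-103 and KO came together, and the KO libraries exceeded the NT libraries within each treatment. On the log2 scale CB-103 raised CLU by 4.44 ± 0.42 in NT and 4.92 ± 0.34 in KO cells. KO exceeded NT by 2.11 ± 0.49, 2.59 ± 0.29 and 2.66 ± 0.44 under DMSO, CB-103 and GSI (largest edgeR adjusted p = 0.0043, CB-103 responses included). The 2 responses to CB-103 were not called different on that scale (0.48 ± 0.64, adjusted p = 0.69).

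Among the 4 tested proteases, CTSD rose and CTSA and CTSB fell with CB-103 in both genotypes. CTSD held 86.1, 94.1 and 84.3 CPM in NT DMSO and 306, 345 and 349 CPM in NT CB-103, and 81.1, 86.7 and 88.4 CPM in KO DMSO and 304, 295 and 336 CPM in KO CB-103. GSI libraries, at 89.7, 115 and 105 CPM (NT) and 107, 86.7 and 91.7 CPM (KO), lay far below the CB-103 libraries. Its rise was 1.92 ± 0.09 in NT and 1.87 ± 0.09 in KO cells (edgeR adjusted p = 4.9e-12 and 1.4e-11), and KO and NT were not called different under any treatment (log2 values from -0.12 to -0.05). CTSB, a cysteine protease, held 64.3, 61.8 and 59.2 CPM in NT DMSO, 45.4, 41.4 and 41.7 CPM under CB-103 and 43.5, 45.2 and 43.7 CPM under GSI. In KO cells it held 86.9, 77.6 and 76.5 CPM under DMSO, 75.2, 69.5 and 70.9 CPM under CB-103 and 74.1, 77.5 and 71.4 CPM under GSI, so every KO library lay above every NT library. It fell in NT cells with either inhibitor (-0.53 ± 0.06 with CB-103, -0.49 ± 0.06 with GSI) and little in KO cells (-0.16 ± 0.06, a call that needed KO DMSO replicate 1 and KO CB-103 replicates 2 and 3, and -0.11 ± 0.06, not called). CTSA, a carboxypeptidase that also protects NEU1 and GLB1, fell with CB-103 from 60.4, 56.04 and 56.1 to 46.5, 44.6 and 47.4 CPM in NT cells (-0.32 ± 0.06) and from 60.3, 61.1 and 61.6 to 50.9, 56.7 and 51.7 CPM in KO cells (-0.20 ± 0.06). TPP1, a tripeptidyl peptidase, rose by 0.30 ± 0.11 and 0.35 ± 0.11. TPP1 libraries of replicate 1 lay 0.21 (log2) above the others across groups (edgeR adjusted p = 0.00099), and leaving out NT CB-103 replicate 1 or KO CB-103 replicate 1 ended the call in its genotype.

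Glycosidases moved both ways with CB-103. NEU1, a sialidase, rose from 29.1, 28.2 and 26.9 to 67.1, 60.1 and 62.9 CPM in NT (1.18 ± 0.06) and from 26.8, 24.01 and 24.7 to 63.3, 57.2 and 61.9 CPM in KO cells (1.27 ± 0.06). With GSI it stood at 33.1, 32.8 and 34.1 CPM in NT and 32.6, 32.2 and 33.3 CPM in KO cells, a smaller rise (0.25 ± 0.06 and 0.38 ± 0.06, edgeR adjusted p = 0.004 and 0.00017). GLA, the alpha-galactosidase lacking in Fabry disease, rose by 0.97 ± 0.07 and 0.97 ± 0.07 in NT and KO cells. GUSB fell from 67.9, 65.6 and 71.5 to 39.96, 39.3 and 40.01 CPM in NT (-0.78 ± 0.05, adjusted p = 8e-10) and from 73.4, 73.8 and 69.5 to 46.1, 51.99 and 51.7 CPM in KO cells (-0.53 ± 0.05). GUSB has pseudogene copies that can take some of its reads. GLB1, a beta-galactosidase, fell in NT cells (-0.44 ± 0.07) and was not called in KO cells (-0.14 ± 0.07). HEXA, a subunit of beta-hexosaminidase, did not pass with CB-103 in NT cells (-0.04 ± 0.05) and rose by 0.22 ± 0.05 in KO cells. NAGLU answered to genotype rather than to drug: KO exceeded NT by 0.57 ± 0.11, 0.38 ± 0.11 and 0.52 ± 0.11 under DMSO, CB-103 and GSI, and no drug comparison was called.

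Among genes of lipid breakdown, PSAP moved in opposite directions with the inhibitors. It held 1357, 1252 and 1227 CPM in NT DMSO, 1939, 1719 and 1682 CPM with CB-103 and 907, 897 and 854 CPM with GSI. In KO cells it held 1558, 1401 and 1412 CPM under DMSO, 2871, 2491 and 2697 CPM with CB-103 and 1301, 1174 and 1149.5 CPM with GSI. In both genotypes all CB-103 libraries lay above DMSO and all GSI libraries below it. CB-103 raised PSAP by 0.48 ± 0.07 in NT and 0.88 ± 0.07 in KO cells, GSI lowered it (-0.53 ± 0.07 and -0.27 ± 0.07, edgeR adjusted p = 2.1e-05 and 0.01), and the inhibitors differed by 1.01 ± 0.07 and 1.15 ± 0.07. Replicate 1 of PSAP lay 0.14 (log2) above the others across groups (edgeR adjusted p = 0.00063).

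NPC2 held 55.1, 58.2 and 55.9 CPM in NT DMSO and 40.9, 38.2 and 34.99 CPM in NT CB-103, but 42.01, 37.2 and 38.4 CPM in KO DMSO and 40.4, 41.4 and 43.3 CPM in KO CB-103. The NT DMSO and NT GSI libraries (53.5, 63.7 and 59.7 CPM) stood above the rest, and KO GSI held 48.4, 48.8 and 46.2 CPM. CB-103 thus lowered NPC2 in NT cells (-0.57 ± 0.07, edgeR adjusted p = 1.1e-06) and not past the threshold in KO cells (0.09 ± 0.07), with a called difference of 0.65 ± 0.10. KO was below NT under DMSO (-0.52 ± 0.07). LIPA, the acid lipase of cholesteryl esters, rose with CB-103 by 0.63 ± 0.05 and 0.74 ± 0.05 in NT and KO cells. ASAH1, an acid ceramidase, was not called in any comparison of the deposited gene counts (-0.01 ± 0.09 for CB-103 in NT cells), although summing its transcript estimates gave a rise there (0.26, adjusted p = 0.00044) and in KO cells (0.22, adjusted p = 0.0019).

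In the V-ATPase, the proton pump that acidifies the lysosome, 1 subunit stood out. ATP6V0A1, an isoform of the membrane-bound a subunit, held 3.75, 4.23 and 3.83 CPM in NT DMSO and 25.1, 24.5 and 24.5 CPM in NT CB-103, and 4.61, 5.72 and 5.002 CPM in KO DMSO and 29.1, 27.8 and 30.7 CPM in KO CB-103. GSI left it at 4.08, 4.11 and 3.92 CPM (NT) and 4.71, 4.43 and 4.82 CPM (KO), inside or below the range of its DMSO libraries. It rose 6.28-fold in NT (2.65 ± 0.08, edgeR adjusted p = 2.4e-14) and 5.7-fold in KO cells (2.51 ± 0.08). The other 3 subunits lay between -0.18 and -0.03 with CB-103 in NT cells. In KO cells ATP6V0D1 was called higher with either inhibitor, at means of 29.2 CPM under DMSO, 33.2 CPM under CB-103 and 35.1 CPM under GSI. The CB-103 call was lost in 3 of 6 removals of 1 library and the GSI call in 0 of 6. ATP6V1A, the catalytic subunit, fell slightly there (-0.18 ± 0.05) and stood higher in KO than NT under CB-103 (0.37 ± 0.05) and GSI (0.19 ± 0.05). ATP6V1H, a regulatory subunit, was higher in KO under the same treatments (0.33 ± 0.07 and 0.22 ± 0.07), and ATP6V0D1 under GSI (0.19 ± 0.06).

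**Figure D4:**
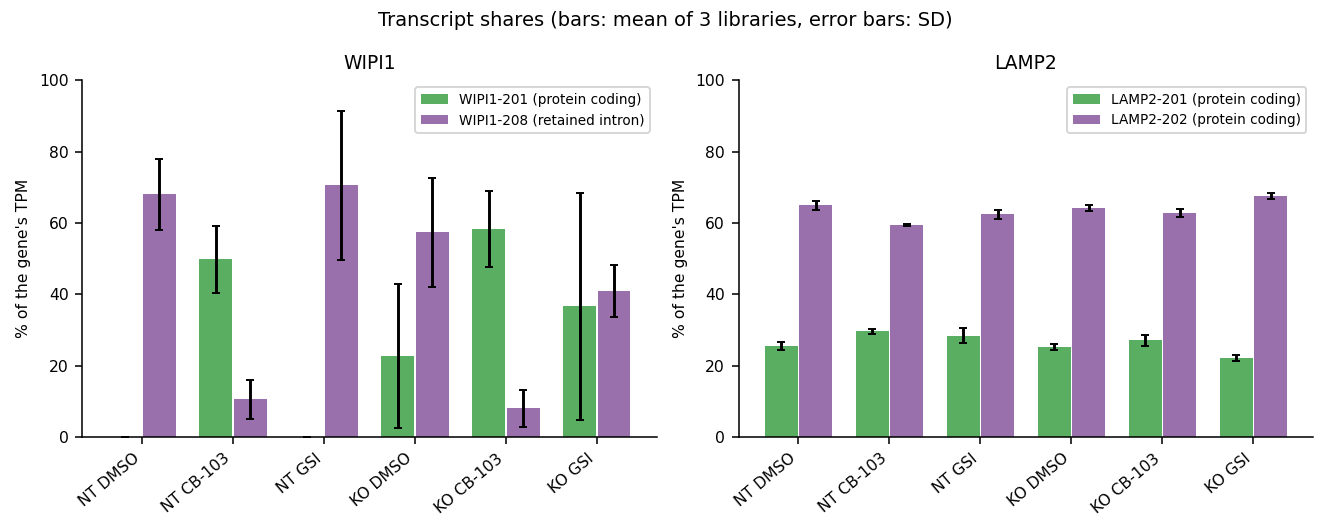
Share of the gene's TPM (y axis, percent) held by 2 annotated transcripts of WIPI1 (left) and LAMP2 (right) in the 6 groups, as the mean of 3 libraries with the SD. The WIPI1 retained-intron form falls to 10.6% in NT CB-103, while the LAMP2 transcripts keep their order in all groups.

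The wider pathway was described with 6 lists of other genes. The all-gene shares to read them against are 29.5% higher and 28.7% lower for CB-103 in NT cells, and 24.9% and 23.7% in KO cells. With CB-103 in NT cells, 12 of 38 tested other lysosomal hydrolases and cofactors were higher (31.6%) and 13 lower (34.2%), with a median of 0.02, close to the shares of all genes. IDS, a sulfatase, rose 2.65-fold, while LGMN, the asparaginyl endopeptidase, and CTSW, a cathepsin of cytotoxic lymphocytes, fell (-1.26 and -1.11). Of 33 membrane and transport genes 16 were higher (48.5%) and 10 lower (30.3%), with a median of 0.24, and NPC1, the partner of NPC2 in cholesterol export, rose by 1.08 ± 0.08 while LAPTM4B and ATP13A2 fell (-1.19 and -1.18). Of 17 other V-ATPase subunits 4 were higher (23.5%) and 5 lower (29.4%), with a median of 0.09. ATP6V0B rose (0.77), and ATP6V1B2 and ATP6V1F fell (-0.63 and -0.53).

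Among 37 other core autophagy genes, 18 were higher (48.6%, all genes 29.5%) and 5 lower (13.5%, all genes 28.7%) with CB-103 in NT cells, with a median of 0.30. In KO cells 16 were higher (43.2%, all genes 24.9%) and 4 lower (10.8%, all genes 23.7%), with a median of 0.14. TMEM41B and VMP1, lipid scramblases of the autophagosome's source membrane, rose by 2.18 ± 0.09 and 1.29 ± 0.07 in NT cells, and WDR45, a relative of WIPI1, by 1.85 ± 0.10. Of 15 other autophagy receptors 7 were higher (46.7%) and 5 lower (33.3%) in NT cells. OPTN, a receptor for ubiquitinated cargo, rose by 4.09 ± 0.12 in NT and 2.67 ± 0.11 in KO cells, and CCPG1, a receptor on the endoplasmic reticulum, by 3.17 ± 0.11 and 2.86 ± 0.11. OPTN, like GABARAPL1 and WIPI1, had a smaller rise in KO cells (-1.41 ± 0.16, edgeR adjusted p = 2.1e-05).

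Of 31 other MiT factors and amino acid sensing genes 9 were higher (29.03%, all genes 29.5%) and 15 lower (48.4%, all genes 28.7%) with CB-103 in NT cells, with a median of -0.20. In KO cells 6 were higher (19.4%, all genes 24.9%) and 11 lower (35.5%, all genes 23.7%), and the median of -0.01 was that of all genes. CASTOR1, an arginine sensor, fell with CB-103 (-2.30 ± 0.11 in NT and -1.27 ± 0.11 in KO cells), whereas it rose with GSI (0.55 ± 0.09 and 0.81 ± 0.10). SESN2, a leucine sensor induced by stress, rose with CB-103 (2.11 ± 0.06 and 2.19 ± 0.06) and fell with GSI in NT cells (-0.56 ± 0.06). MITF, another MiT factor, rose 2.64-fold with CB-103 in NT cells and less in KO cells (difference -0.66 ± 0.16).

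Between the genotypes under DMSO, where 9.78% of all genes were higher and 11.7% lower, 4 of 38 hydrolases were higher (10.5%) and 6 lower (15.8%). Of 33 membrane genes 3 were higher and 3 lower (9.09% each), and of 37 core autophagy genes 4 were higher (10.8%) and 9 lower (24.3%). ATG5, which joins ATG12 in the conjugation machinery, was -0.99 ± 0.10 in KO against NT cells, and ATG13, a partner of ULK1, -0.60 ± 0.05. SESN3 stood higher in KO cells (0.95 ± 0.09), as did ATP6V0E2 (1.03 ± 0.07), LAPTM5 (0.59 ± 0.05) and OPTN (1.43 ± 0.12). SCARB2, the receptor that carries beta-glucocerebrosidase to the lysosome, was lower (-0.68 ± 0.04), and so was LGMN (-0.73 ± 0.05). The largest edgeR adjusted p of these 8 genes was 1.8e-06, for ATG5.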

How the data were processed

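Polyadenylated RNA of 18 RPMI-8402 libraries (6 groups of 3) was sequenced as paired 75-nt reads, per the labels' protocols. Per the submitters' processing notes, Salmon 1.4.0, HISAT2 2.2.1, FastQC 0.11.9 and bcl2fastq 2.20 were used with build hg38, in roles not given. The authors deposited estimated counts per gene, already rounded to whole numbers, and TPM per transcript, which were summed per gene. Deposited transcript identifiers all matched GENCODE 29 (206601 transcripts). How transcripts were combined into genes is not given in the sources used here. Totals of 30416183 to 43558387 estimated counts limit the precision of low genes, and intervals cover the spread between libraries only.

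Members were matched by symbol. The members and gene lists were chosen with earlier results of these data known. Values in every library were planned for 12 fixed members and for the 4 called members with the largest change in each direction of a comparison (mean of at least 5 CPM). Up to 3 called genes of each pathway list were named by the same level rule. Further members are named because every member may be. Counts were filtered (filterByExpr, minimum count 10), TMM-scaled (factors 0.954 to 1.03) and fitted with edgeR 4.0.16 (R 4.3.3) as 1 mean per group over all 18 libraries (12 residual degrees of freedom). Quasi-likelihood tests of 11 comparisons were adjusted by Benjamini-Hochberg over 17346 genes each and called at 0.05. The SE is the log2 fold change divided by the root of F. CPM are counts scaled by library size and TMM factor, used within a gene, and TPM were used between genes. The fit was tested on simulated data. Same-numbered replicates of NT DMSO and NT CB-103, and of NT DMSO and NT GSI, deviated together (each correlation over 0.1), which was the case for 4 of 15 pairs of groups, with no shared source stated. Alternatives were DESeq2 1.42.0 size factors and Wald test, limma 3.58.1 (voom), no filter, fits of the compared groups alone, the replicate block, gene sums of transcript estimates, replicates 2 and 3 only, and removal of each library. Promoter windows came from RefSeq (GRCh38.p14).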

Additional observations from a re-analysis of the deposited data

Results flagged for a closer look

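The response to CB-103 differed between KO and NT cells by a test of that difference for 12 members (log2 differences, KO minus NT, edgeR adjusted p under 0.05). It was more positive in KO cells for CD68 (1.53), NPC2 (0.65), PSAP (0.41), CTSB (0.37), GLB1 (0.30), CD63 (0.29), ATP6V1A (0.26), HEXA (0.26) and GUSB (0.25). It was more negative for WIPI1 (-1.47), GABARAPL1 (-0.88) and TFE3 (-0.38). The response to GSI differed for CD63 (0.43), CTSB (0.37) and ULK1 (-0.51). For NPC2, CTSB, GUSB, GLB1 and ATP6V1A the positive difference stands for a smaller fall in KO cells or no called change there. For CD68, PSAP and CD63 it stands for a larger rise, and for HEXA for a rise called in KO cells only. GLB1 had the largest adjusted p of the 12 (0.049) and was lost in 10 of 12 removals of 1 library.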

How the results depend on the processing

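Among single-member values under all alternatives, 5478 stayed on the same side of the threshold, 219 lost the call and 111 gained one. The 5478 include values whose direction changed between 2 fits that were both not called. Only 1 value changed direction with a call in either fit, namely ASAH1 with CB-103 in NT cells (0.26 from gene sums of transcript estimates). Counts of members moved by over 1.5 times as follows, and the cause was not tested. With gene sums of transcript estimates, GSI in NT cells gave 11 higher, CB-103 in KO cells 5 lower, GSI in KO cells 1 lower, KO under DMSO 4 lower, CB-103 against GSI in KO cells 7 lower, and the difference of GSI responses 4 higher and 0 lower. With replicates 2 and 3 only, GSI in KO cells gave 1 lower, KO under DMSO 2 lower, KO under CB-103 1 lower, KO under GSI 11 higher, and the difference of GSI responses 0 higher and 0 lower. KO under CB-103 gave 1 lower with no filter and 1 lower with only the groups compared. Removing 1 library at a time gave 0 to 2 lower for GSI in KO cells, 1 to 2 lower for KO under DMSO, 1 to 2 lower for KO under CB-103, 11 to 18 higher for KO under GSI and 2 to 5 lower for CB-103 against GSI in KO cells. The same removals gave 4 to 9 higher for the difference of CB-103 responses, and 0 to 5 higher and 0 to 2 lower for that of GSI responses.

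With the replicate block, KO under DMSO gave 3 members lower, and GSI in NT cells gave 8 higher. CB-103 in NT cells kept all of its calls. Correlations of same-numbered replicates ranged from -0.0713 to 0.352, and 15 of 18 libraries correlated best with their own number, a hint from the data and not from the design. Replicate 1 differed from the others in 2488 genes (14.3%), 4 members among them. Low counts limit TFEB, CLU and WIPI1, whose changes of less than 1 log2 unit mostly did not pass.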
